A study of Arabidopsis thaliana with 6 samples.

Results

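The genes described here are those whose transcripts were lower in every Bnt07G011994-overexpressor stem than in every wild-type (WT) stem of Arabidopsis thaliana, by a clear gap. A gene was taken when its lowest WT value was at least 1 FPKM (fragments per kilobase of exon, scaled to the size of the library) and at least 1.5 times its highest overexpressor value. Of the 24434 genes listed, 15794 had a lowest WT value of at least 1 FPKM, and 25 of these met the rule, 0.158% of them. The members were thus selected on the FPKM values of all 6 libraries, so their levels and ratios are given below as a description, without a test. The mirrored rule, applied to genes higher in every overexpressor stem, took 44 of 16269 genes, or 0.270%.

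The study asked which stem transcripts differ between plants overexpressing Bnt07G011994 and WT plants. The overexpressor group had 3 samples and the WT group 3, all of the Columbia ecotype, and each sample was the stem of 1 plant. All plants were kept in a greenhouse at 22 °C with days of 15 h and nights of 9 h, and stems were cut when they were about 10 cm long. The labels do not give the promoter that drives the transgene, its species of origin, the number of transgenic lines or the hour of cutting, and transgene transcripts were not analysed here. In bulk tissue of this kind, fewer cells of a type and less RNA per cell cannot be told apart.

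Genes gathered by a shared direction need not form a pathway, and these 25 come from many. Among them are carriers of sugars (SWEET) and of amino acids (UMAMIT), enzymes of glucosinolate and redox chemistry, a MADS-box repressor of flowering and a protein of meiotic crossing over. QQS, an orphan gene with no recognisable relative outside its species, is known for influencing how carbon and nitrogen are shared between starch and protein. QQS and AOP3 are also known for levels that differ between natural accessions of the species, in QQS together with DNA methylation near its start.

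The libraries held 44597288 to 45642240 reads assigned to genes. WT replicate 1 stood apart from the other 5 libraries: its Spearman correlations across genes were 0.942 to 0.968 over 5 pairs, against 0.983 to 0.988 over 9 other pairs and 0.993 between WT replicates 2 and 3. Xylem marker genes, of which 6 of 6 reached 1 FPKM in every library, summed to 639 to 962 FPKM in overexpressor stems and to 130, 778 and 832 FPKM in WT replicates 1, 2 and 3. Epidermis markers behaved alike, with 696 to 900 FPKM in overexpressor stems and 328, 949 and 886 FPKM in WT replicates 1, 2 and 3. Phloem markers summed to 218 to 232 FPKM in overexpressor stems and 230 to 268 FPKM in WT stems. Green tissue markers summed to 16630 to 19005 FPKM in overexpressor stems and 16291 to 16935 FPKM in WT stems, and cambium markers to 43.4 to 49.0 FPKM in overexpressor stems and 38.2 to 54.0 FPKM in WT stems. Markers of flower (AG, AP3, PI, SEP3, AMS, LFY and AP1), seed and root summed to at most 3.91, 2.03 and 0.742 FPKM in any library. No list of pollen genes was read. The part of these differences in tissue markers in the values below was not tested. Without WT replicate 1, the rule took 94 genes, and the mirrored rule 136.

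The start regions of AT1G27565, the member with the widest gap, and of its near-identical copy AT1G52905 are shown first, because the copy is not a member. AT1G27565 encodes an uncharacterized protein of 47 residues (TAIR10.1, chromosome 1, 9574550 to 9575189, plus strand) and AT1G52905 lies on the same chromosome (19706047 to 19706885, plus strand). Each window runs from 250 bases before to 50 bases after the annotated start, at chr1:9574300-9574599 and chr1:19705797-19706096, plus strand. Capitals mark bases that match the other window. The matching run holds 238 equal bases and 6 mismatches (97.5% identity), and begins 217 bases before the start of AT1G27565 and 194 bases before that of AT1G52905. It ends where the AT1G52905 window ends, so the last bases of the AT1G27565 window are in lower case for lack of a counterpart in that window.
AT1G27565: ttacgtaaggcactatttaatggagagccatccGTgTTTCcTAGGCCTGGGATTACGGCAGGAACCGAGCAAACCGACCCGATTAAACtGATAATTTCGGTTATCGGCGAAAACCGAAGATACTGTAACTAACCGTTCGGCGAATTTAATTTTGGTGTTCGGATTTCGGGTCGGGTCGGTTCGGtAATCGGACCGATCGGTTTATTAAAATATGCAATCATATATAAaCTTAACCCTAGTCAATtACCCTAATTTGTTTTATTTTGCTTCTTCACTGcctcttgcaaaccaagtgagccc
AT1G52905: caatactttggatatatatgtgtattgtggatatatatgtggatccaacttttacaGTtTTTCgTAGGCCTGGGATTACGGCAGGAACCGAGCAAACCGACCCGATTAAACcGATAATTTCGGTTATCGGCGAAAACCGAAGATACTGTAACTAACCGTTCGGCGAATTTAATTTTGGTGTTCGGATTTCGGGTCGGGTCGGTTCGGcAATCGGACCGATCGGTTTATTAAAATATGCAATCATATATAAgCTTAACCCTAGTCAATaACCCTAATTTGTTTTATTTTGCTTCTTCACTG

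AT1G27565 stood at 0.256, 0.213 and 0.258 FPKM in overexpressor replicates 1 to 3, which is 5 or 6 reads, and at 18.5, 12.7 and 10.7 FPKM in WT replicates 1 to 3, which is 247 to 425 reads. All overexpressor stems lay far under all WT stems, with a log2 ratio of group means of -5.85. AT1G52905 stood at 11.3, 18.4 and 13.6 FPKM in overexpressor stems and at 25.0, 12.3 and 14.9 FPKM in WT stems, so that its groups overlapped. Over all genes, limma on log2(FPKM + 1) gave AT1G52905 a log2 fold change of -0.22 (SE 0.29, adjusted p = 0.844). Across the aligned loci, the copies were 96.2% identical over 1034 columns, flanking bases included. Of the 25 members, AT1G27565 was the 1 with another genomic match at 95% identity or more over at least 50% of its exons, and reads from the matching stretch (324 bp at 98.1%) may have been split between the loci.

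The window around the start of QQS is shown for a repeat that it holds. QQS (AT3G30720) encodes 59 residues (TAIR10.1, chromosome 3, 12349047 to 12349933, plus strand), and the window lies at chr3:12348797-12349096, plus strand. Capitals mark the 2 most similar units of 30 bases in direct orientation, which begin 203 and 109 bases before the start and match at 24 of 30 bases. A pair at least as similar was found in 3.86% of 15769 windows of other genes, and in 1 of the 25 member windows, that of QQS.
QQS: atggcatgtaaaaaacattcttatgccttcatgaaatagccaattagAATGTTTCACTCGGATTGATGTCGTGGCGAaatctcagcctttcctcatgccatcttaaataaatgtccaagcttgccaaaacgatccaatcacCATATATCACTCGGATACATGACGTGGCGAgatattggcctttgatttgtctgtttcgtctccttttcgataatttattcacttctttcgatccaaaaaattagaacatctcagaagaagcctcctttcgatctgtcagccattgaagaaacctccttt

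QQS stood at 5.35, 10.0 and 12.1 FPKM in overexpressor stems, against 66.4, 105 and 99.0 FPKM in WT stems. Its mean was 9.16 ± 3.46 FPKM in overexpressor stems and 90.0 ± 20.6 FPKM in WT stems (SD, n = 3 each), a log2 ratio of -3.30. With 167 to 375 reads in overexpressor stems and 2033 to 3253 in WT stems, it was among the 8 members with at least 100 reads in every library. In WT stems QQS and the sugar carrier SWEET11 were the 2 members with a mean above 50 FPKM, and in overexpressor stems SWEET11 had the higher value in every replicate. NF-YC4, a transcription factor subunit that binds the QQS protein, stood at 28.8, 25.8 and 28.6 FPKM in overexpressor stems and 16.5, 28.0 and 31.9 FPKM in WT stems, and its groups overlapped.

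**Figure D1:**
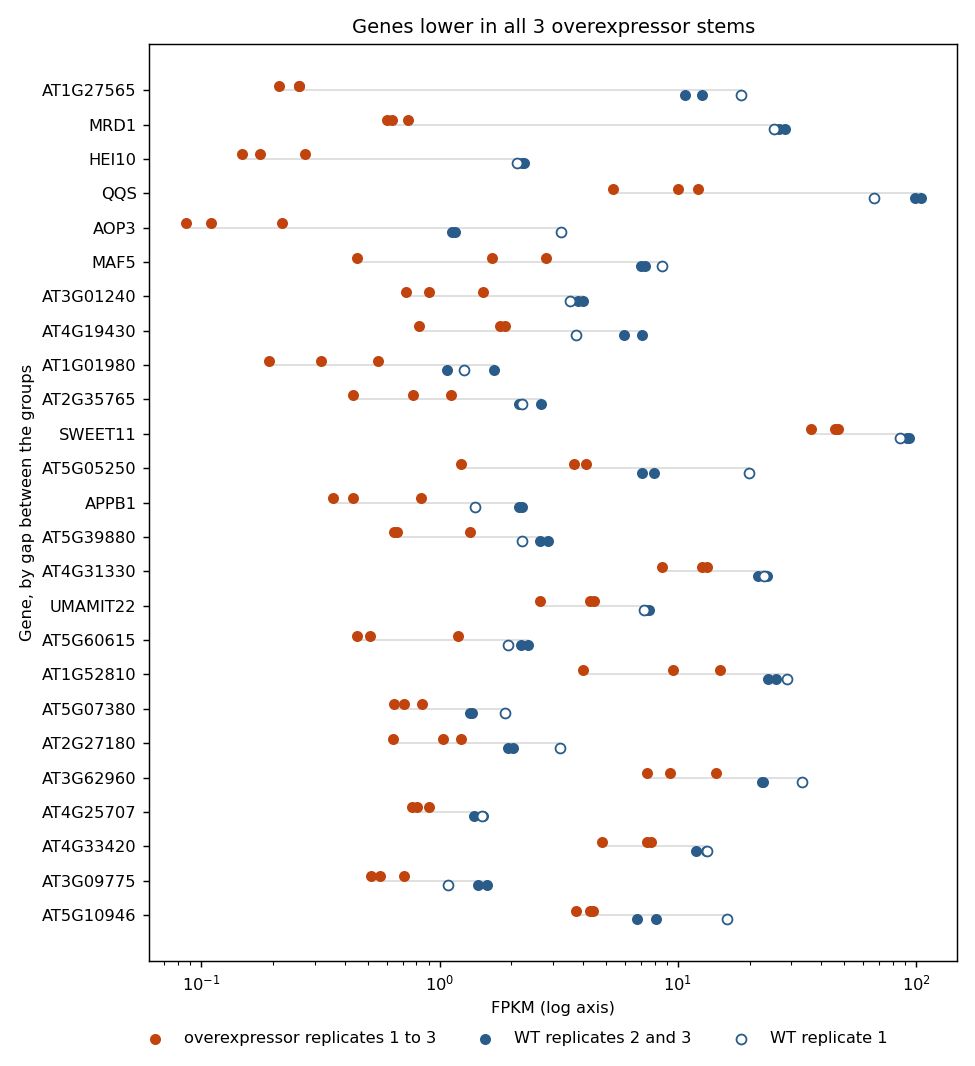
FPKM of the 25 members on a log axis, 1 gene per line, ordered by the ratio of the lowest WT to the highest overexpressor value, with 1 point per library. Overexpressor points lie left of all WT points in every line because the rule chose the genes so; the distance between them is widest in AT1G27565 and MRD1, and the WT points of QQS and SWEET11 lie farthest to the right.

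MRD1 and HEI10 share 1 locus on chromosome 1. MRD1 (AT1G53480; 19963047 to 19964712, minus strand, 193 residues) is named for being lower in a mutant that accumulates methionine, and HEI10 (AT1G53490; 19963267 to 19966952, plus strand, 304 residues) is a RING protein that acts in meiotic crossover formation. MRD1 stood at 0.739, 0.631 and 0.603 FPKM in overexpressor stems, against 25.4, 28.3 and 26.7 FPKM in WT stems, a log2 ratio of -5.35. HEI10 stood at 0.176, 0.272 and 0.148 FPKM in overexpressor stems, against 2.12, 2.22 and 2.26 FPKM in WT stems, a log2 ratio of -3.47. Their exons, on opposite strands, share 922 bp, which is 73.8% of the exonic length of MRD1 (1250 bp) and 40.9% of that of HEI10 (2252 bp). Whether reads were counted by strand is not given in the sources used here, and without strand the reads of the overlap cannot be told apart. The reads assigned came to 15 to 28 for HEI10 in overexpressor stems and 213 to 228 in WT stems, and to 34 to 42 for MRD1 in overexpressor stems and 1414 to 1599 in WT stems.

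A non-coding RNA annotated at the same place, AT1G07887, was listed at 0 in every library but WT replicate 2, which had 2 reads; all its 1039 bp lie within MRD1 exons, on the other strand. MUM4, a rhamnose synthase gene whose exons overlap those of HEI10 by 9 bp, stood at 28.1, 22.2 and 25.5 FPKM in overexpressor stems and 11.4, 22.8 and 24.0 FPKM in WT stems, with overlapping groups. The closest genomic match of MRD1, AT5G03090 (1060 bp at 89.9% identity), had at most 5 reads in any library.

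AOP3 (AT4G03050; chromosome 4, 1343845 to 1346436, plus strand) encodes a 2-oxoglutarate-dependent dioxygenase that modifies the side chain of aliphatic glucosinolates, and the RefSeq annotation calls it silent in leaves of Columbia. It stood at 0.110, 0.219 and 0.0862 FPKM in overexpressor stems, which is 7 to 18 reads, against 3.23, 1.17 and 1.13 FPKM in WT stems, which is 91 to 259 reads. WT replicate 1 was the highest, and the log2 ratio was -3.73 with it and -3.05 without it. AT4G03040, an uncharacterized gene that ends 704 bp before AOP3 on the same strand, had 0 reads in each overexpressor stem, which allows up to 0.236 to 0.238 FPKM, and 1.21, 0.238 and 0.719 FPKM in WT stems, which is 15, 3 and 9 reads. AOP1, a relative of AOP3 farther along the chromosome, stood at 1.75, 1.15 and 1.63 FPKM in overexpressor stems and 1.28, 1.36 and 1.28 FPKM in WT stems (limma log2 fold change 0.11, adjusted p = 0.829). Its groups overlapped, while those of AOP3 and AT4G03040 did not.

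MAF5 (AT5G65080; chromosome 5, 25997504 to 26002619, plus strand) is a MADS-box transcription factor of the FLC clade, which represses flowering. It stood at 1.67, 2.79 and 0.452 FPKM in overexpressor stems, against 8.61, 7.29 and 6.99 FPKM in WT stems, a log2 ratio of -2.22, or -2.85 without overexpressor replicate 2. The overexpressor stems spread 6.16-fold from the lowest to the highest, the widest spread of any member, while the WT stems spread 1.23-fold. MAF4, which ends 1301 bp before MAF5, stood at 0.294, 0.453 and 0.391 FPKM in overexpressor stems and 1.04, 0.899 and 0.596 FPKM in WT stems, with no overlap of the groups, and did not reach the mean of 1 FPKM needed for the test. The other 2 genes of the cluster, AGL31 (also called MAF2) and MAF3, and MAF1 on another chromosome had limma log2 fold changes of 0.04 (SE 0.09), -0.06 (SE 0.10) and -0.09 (SE 0.09), none of them called (adjusted p = 0.910, 0.872 and 0.808). FLC itself was at most 0.0557 FPKM in overexpressor stems and 0.0950 FPKM in WT stems.

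Carriers of sugars and amino acids gave 2 members. SWEET11 (AT3G48740; chromosome 3, 18052466 to 18054832, minus strand, 289 residues) exports sucrose from phloem parenchyma cells for loading into the phloem. It stood at 36.3, 47.0 and 45.6 FPKM in overexpressor stems, against 85.2, 93.7 and 91.9 FPKM in WT stems, with means of 43.0 ± 5.82 FPKM in overexpressor stems and 90.3 ± 4.45 FPKM in WT stems (SD, n = 3 each), a log2 ratio of -1.07. It carried the most reads of any member, 2290 to 2975 in overexpressor stems and 5273 to 5883 in WT stems. SWEET12, its closest partner in sucrose export, stood at 71.4, 71.6 and 85.3 FPKM in overexpressor stems and 91.9, 142 and 135 FPKM in WT stems, again without overlap. In limma, SWEET12 had a log2 fold change of -0.67 (SE 0.19), which was not called (adjusted p = 0.805, and 0.0595 without WT replicate 1). UMAMIT22 (AT1G43650; chromosome 1, 16443582 to 16446918, minus strand), of a family of amino acid transporters, stood at 2.63, 4.45 and 4.26 FPKM in overexpressor stems, against 7.24, 7.36 and 7.56 FPKM in WT stems. Phloem markers, summed above, were likewise lower in each overexpressor stem than in WT replicates 2 and 3, and their part in the SWEET11 values was not tested.

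Oxidoreductases were the largest class with a named function, with 5 of the 25 members (20%), against 4.57% of the 15769 other genes with a lowest WT value of at least 1 FPKM. One was AOP3. AT1G52810, another 2-oxoglutarate- and iron-dependent oxygenase (chromosome 1, 19667127 to 19668237, plus strand), stood at 3.99, 15.0 and 9.51 FPKM in overexpressor stems, against 28.7, 25.8 and 24.0 FPKM in WT stems, and its overexpressor stems spread 3.76-fold. AT1G01980, of the FAD-binding berberine family of oxidases (chromosome 1, 340108 to 342040, minus strand), stood at 0.319, 0.193 and 0.551 FPKM in overexpressor stems, against 1.26, 1.07 and 1.70 FPKM in WT stems. AT4G33420, of the peroxidases that use hydrogen peroxide (chromosome 4, 16084713 to 16086388, plus strand), stood at 7.69, 4.79 and 7.39 FPKM in overexpressor stems, against 13.3, 13.2 and 11.9 FPKM in WT stems.

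The fifth was AT3G62960, a thioredoxin superfamily protein of 102 residues (chromosome 3, 23268641 to 23269324, plus strand). It stood at 9.26, 14.5 and 7.39 FPKM in overexpressor stems, against 33.2, 22.7 and 22.5 FPKM in WT stems. Its closest genomic match, AT2G47880 (318 bp at 84.3% identity), stood at 5.44, 17.9 and 4.50 FPKM in overexpressor stems and 45.6, 19.1 and 23.1 FPKM in WT stems, so that its groups did not overlap either, by a small margin. The limma log2 fold change of AT2G47880 was -1.69 (SE 0.55) and was not called (adjusted p = 0.805), and it was -1.33 without WT replicate 1. In both genes overexpressor replicate 3 was the lowest library and WT replicate 1 the highest.

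Small or secreted proteins of other kinds included APPB1 and AT5G60615. APPB1 (AT4G24640; chromosome 4, 12717788 to 12719287, plus strand), of the superfamily that inhibits invertases and pectin methylesterases, stood at 0.357, 0.434 and 0.839 FPKM in overexpressor stems, against 1.41, 2.15 and 2.21 FPKM in WT stems. AT5G60615, a defensin-like protein of 79 residues (chromosome 5, 24365566 to 24366376, minus strand), stood at 0.450, 0.513 and 1.20 FPKM in overexpressor stems, against 1.93, 2.20 and 2.35 FPKM in WT stems. In both, overexpressor replicate 3 was the highest of its group. AT4G25707 (chromosome 4, 13096860 to 13098088, minus strand; 40 residues, the shortest protein of the set), annotated as a splicing factor 3A subunit, stood at 0.805, 0.767 and 0.902 FPKM in overexpressor stems, against 1.51, 1.40 and 1.52 FPKM in WT stems, a log2 ratio of -0.84, the one nearest 0 among the members.

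AT3G01240, annotated as a splicing regulatory glutamine/lysine-rich-like protein (chromosome 3, 78095 to 79037, minus strand), stood at 0.723, 0.906 and 1.53 FPKM in overexpressor stems, against 3.54, 4.01 and 3.83 FPKM in WT stems. Some of its neighbours, picked from the 5 listed genes on each side after their values were seen, were low in most of the same stems. AT3G01230, its closest genomic match (639 bp at 69.2% identity), stood at 0.310, 0.365 and 1.28 FPKM in overexpressor stems and 1.35, 1.22 and 2.08 FPKM in WT stems. AT3G01260, a galactose mutarotase-like gene, stood at 0.0777, 0.477 and 0.274 FPKM in overexpressor stems and 1.11, 0.702 and 0.958 FPKM in WT stems. AT3G01270, a pectate lyase gene, stood at 1.49, 1.96 and 3.97 FPKM in overexpressor stems and 4.24, 5.96 and 6.73 FPKM in WT stems. The groups of AT3G01260 and AT3G01270 did not overlap and those of AT3G01230 did. Of these, AT3G01230 and AT3G01270 were tested and not called by limma. Their log2 fold changes were -0.66 and -0.98 (limma unadjusted p = 0.0472 and 0.0156, adjusted p = 0.805 for each). AT3G01250, the gene between AT3G01240 and AT3G01260, was at most 0.0762 FPKM in any library. The other tested neighbours, AT3G01200, AT3G01210, HB20, VDAC1 and HIR2, had limma log2 fold changes of -0.07, -0.05, -0.06, -0.09 and -0.15. Near AT5G07380, another member, AT5G07410 and AT5G07430 were likewise lower without overlap. AT5G07410 ran from 0.492 to 1.07 FPKM in overexpressor stems and 1.43 to 2.90 FPKM in WT stems. AT5G07430 ran from 0.989 to 2.86 FPKM in overexpressor stems and 3.09 to 5.03 FPKM in WT stems. Neither AT5G07410 nor AT5G07430 was called by limma (log2 fold changes -0.87 and -0.94, unadjusted p = 0.00862 and 0.0179, adjusted p = 0.805 for each).

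Genes with no known function made up the largest share. By product name, 9 members (36%) were hypothetical or unknown, against 6.24% of the other genes, and AT1G27565 was 1 of them. AT4G19430 (chromosome 4, 10598371 to 10599182, minus strand, 160 residues) stood at 1.79, 1.89 and 0.819 FPKM in overexpressor stems, against 3.73, 5.93 and 7.05 FPKM in WT stems, and here WT replicate 1 was the lowest WT library. AT5G05250 (chromosome 5, 1556987 to 1558486, minus strand, 239 residues) stood at 1.23, 4.10 and 3.68 FPKM in overexpressor stems, against 19.8, 7.10 and 7.92 FPKM in WT stems, with log2 ratios of -1.95 with WT replicate 1 and -1.32 without it. Its closest genomic match, AT3G56360 (434 bp at 65.2% identity), also had its highest value in WT replicate 1, with 45.6, 57.9 and 74.9 FPKM in overexpressor stems and 164, 95.7 and 91.0 FPKM in WT stems (limma log2 fold change -0.94, adjusted p = 0.805).

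AT4G31330, a putative transmembrane protein with a domain of unknown function (chromosome 4, 15202288 to 15203562, plus strand), stood at 8.56, 13.3 and 12.7 FPKM in overexpressor stems, against 23.1, 21.6 and 23.6 FPKM in WT stems. AT5G10946 (chromosome 5, 3455402 to 3457627, minus strand, 84 residues) stood at 4.27, 4.42 and 3.74 FPKM in overexpressor stems, against 16.2, 8.06 and 6.76 FPKM in WT stems, with log2 ratios of -1.32 with WT replicate 1 and -0.84 without it. The MIR156d locus, which encodes a microRNA that targets SPL transcription factors, lies on the same strand within the span of AT5G10946 and shares no exon base with it. AT2G35765, AT5G39880, AT5G07380 and AT2G27180 were all low, at 0.435 to 1.34 FPKM in overexpressor stems and 1.34 to 3.20 FPKM in WT stems. Their log2 ratios were -1.60, -1.54, -1.07 and -1.30. AT2G35765 (15033537 to 15034091, 73 residues) and AT2G27180 (11620076 to 11621174, 165 residues) lie on chromosome 2 and AT5G39880 (15970887 to 15972344, 363 residues) and AT5G07380 (2332436 to 2336063, 642 residues) on chromosome 5, all on the plus strand. The 1 long non-coding RNA of the set, AT3G09775 (chromosome 3, 23116274 to 23116904, plus strand), had 10 to 14 reads in overexpressor stems and 21 to 31 in WT stems, the fewest WT reads of any member.

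**Figure D2:**
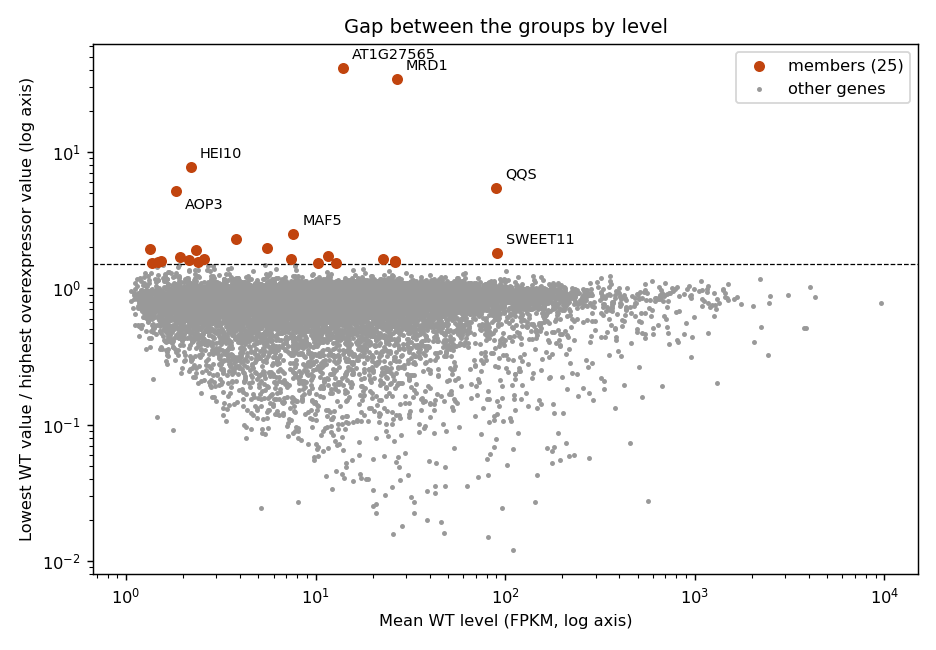
The ratio of the lowest WT to the highest overexpressor value (log axis) against the mean WT level (FPKM, log axis) for the genes with a lowest WT value of at least 1 FPKM; orange points are the 25 members and the dashed line is the limit of 1.5. The members lie above the line by construction, and AT1G27565, MRD1, HEI10, QQS and AOP3 stand apart at ratios of 5.14 or more.

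The gap, the ratio of the lowest WT to the highest overexpressor value, ran from 1.53 to 41.4. It was 41.4 for AT1G27565, 34.3 for MRD1, 7.79 for HEI10, 5.48 for QQS and 5.14 for AOP3. MAF5 followed at 2.51 and AT3G01240 at 2.32, and the other 18 members lay between 1.53 and 1.97. A gap of at least 5 was found in 5 genes in this direction and in 0 genes in the other, where ASN1 had the widest, at 4.34; without WT replicate 1 it was found in 8 lower and 6 higher genes. At gaps of at least 3 and at least 2 the other direction held as many genes or more, with 5 lower and 5 higher genes, and 7 lower and 15 higher. At a gap of at least 1.1 it held fewer, with 359 lower and 304 higher genes. Groups that merely did not overlap were found lower in the overexpressor in 8.63% of all 24434 genes and higher in 4.67%.

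Members just inside the limit were AT5G10946 at 1.53, AT3G09775 at 1.54 and AT4G33420 at 1.55. Just outside were TH7, AT5G06385 and XTH12, each at 1.49. At the floor of 1 FPKM, AT1G01980, AT3G09775 and AOP3 had lowest WT values of 1.07, 1.09 and 1.13 FPKM, while AT4G27580, AT3G20220 and CHX23 met the limit on the gap with lowest WT values of 0.964, 0.891 and 0.844 FPKM. Counting error bears on the members of low level: 8 of the 25 had fewer than 20 reads in at least 1 overexpressor library. Exact Poisson 95% intervals of the lowest WT and the highest overexpressor library did not overlap in 19 members and overlapped in 6, namely AT2G27180, AT2G35765, AT3G09775, APPB1, AT4G25707 and AT5G60615. These intervals cover counting error only.

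The limma fit over all 16870 genes whose mean reached 1 FPKM called 2 genes, or 0.0119%, AT1G27565 and MRD1, both lower. As the rule used the same contrast, nothing is read from their being members. No gene was called higher by limma, where 575 genes were lower and 341 higher at an unadjusted p under 0.05. With the libraries rescaled by median ratio, these were 435 and 452, so the excess of lower genes depended on the scaling. Leaving out WT replicate 1 gave 7 lower and 16 higher genes, and leaving out WT replicate 2 or any of the overexpressor replicates left 1 lower gene.

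**Figure D3:**
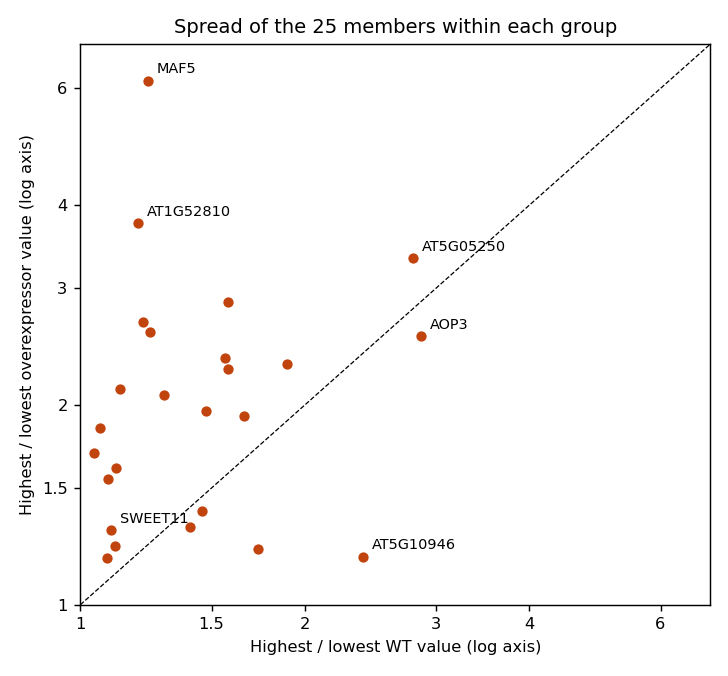
Highest over lowest value within the overexpressor group against that within the WT group for the 25 members (both log axes), with the line of equal spread dashed. MAF5, at 6.16 in the overexpressor and 1.23 in WT, lies highest, and 20 of the 25 points lie above the line.

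Within groups, the members were spread more widely among the overexpressor stems than among the WT stems. The highest overexpressor value was a median of 1.96 times the lowest, and the highest WT value 1.29 times the lowest. The same medians over the 15769 other genes were 1.22 and 1.31. The overexpressor spread was the larger in 20 of 25 members (80%) and in 33.3% of the other genes. The rule limits the highest overexpressor and the lowest WT value but not the spread below or above them, and reads were fewer in the overexpressor, so these counts are a description. Overexpressor replicate 1 was the lowest of its group in 11 members (44%), replicate 2 in 6 (24%) and replicate 3 in 8 (32%), against 47.3, 28.6 and 24.1% of the other genes. WT replicate 1 lay outside the range of WT replicates 2 and 3 in 21 members (84%), against 92.5% of the other genes. It was the highest WT library in 10 members (40%), against 52.7% of the other genes, and the lowest in 11, and WT replicates 2 and 3 differed by a median of 1.07-fold.

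The members were mostly of low level, with a median mean WT level of 5.57 FPKM, against 13.5 FPKM in the other genes. In 12 members (48%) the mean WT level was under 5 FPKM, against 20.5% of the other genes. Their proteins were short. The median of 24 encoded proteins was 198.5 residues, against 387 in the other genes, and 6 (25%) had under 100 residues, against 3.80%. These 6 were QQS, AT1G27565, AT2G35765, AT4G25707, AT5G10946 and AT5G60615. Exons per gene had a median of 2, against 5, and 7 members (28%) had 1 exon, against 11.4%. Short genes gather fewer reads at a given FPKM, and the part of length in passing the rule was not tested.

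**Figure D4:**
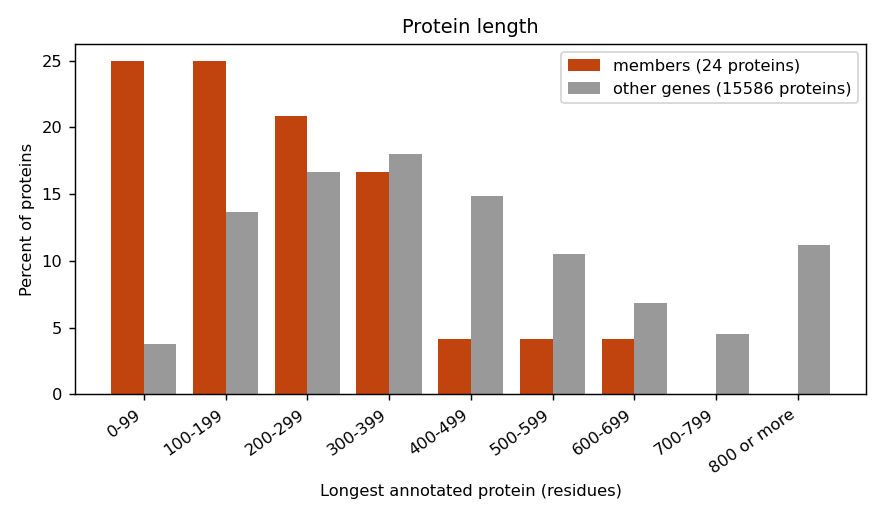
Percent of proteins (vertical axis) in each class of length in residues, for the 24 proteins of the members (orange) and 15586 proteins of other genes with a lowest WT value of at least 1 FPKM (grey). The classes below 100 and from 100 to 199 residues each hold 25% of the members' proteins, against 3.80% and 13.6% of the others.

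Several classes, set by keywords in the product names, held no member. These were kinases of any kind (5.52% of the other genes), nucleotide-binding or disease resistance receptors (0.64%) and cytochromes P450 (0.577%). The others were heat shock or chaperone names (1.19%), lipid or lipase names (1.38%), proteases (1.78%) and transposase or retrotransposon names (0.0634%). Each gene was put in the first class that its name matched.

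The members were spread over the chromosomes, with 6 on chromosome 1, 2 on chromosome 2, 5 on chromosome 3, 6 on chromosome 4 and 6 on chromosome 5. The other genes had 26.5, 15.0, 20.1, 15.0 and 23.1% on these. Apart from MRD1 and HEI10, no members overlapped, and the next closest pairs were AT3G09775 and AT3G62960, 152 kb apart, AT1G52810 and MRD1, 295 kb apart, and APPB1 and AT4G25707, 378 kb apart. AT1G52905, the copy of AT1G27565, lies 37.8 kb from AT1G52810 and 256 kb from MRD1, and 10131 kb from AT1G27565 itself. Exons of AT2G35765, AT4G33420, AT5G07380 and AT5G60615 overlap those of a non-member on the other strand by 55, 78, 169 and 50 bp.

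Genes next to a member on either side, 49 non-members in all, were not used by the rule. Of these, 29 were tested by limma and 0 were called, with 2 lower and 0 higher at an unadjusted p under 0.05. Their median log2 fold change was -0.09, against -0.04 over all genes tested, and 21 of 29 were negative, against 57.7% of all. Groups did not overlap in 9 of the 49 (18.4%), all lower, beside the 8.63% of all genes. Among these 9 were AT4G03040 and MAF4, both named above, and AT1G27570 next to AT1G27565, which was at most 0.0845 FPKM in any library. The other 6 ranged over 7.16 to 28.4 FPKM in overexpressor stems and 7.47 to 31.9 FPKM in WT stems. GPAT9, an enzyme of glycerolipid synthesis, stood at 28.4, 27.9 and 28.2 FPKM in overexpressor stems and 30.3, 31.2 and 31.9 FPKM in WT stems. Some margins were narrow, as in BETA-OHASE 1, at 22.42 FPKM in overexpressor replicate 1 and 22.46 FPKM in WT replicate 1. Non-overlap was counted without rescaling the libraries. The median-ratio factors were 0.966 for overexpressor replicate 1 and 1.04 for WT replicate 1, and on dividing by them the groups of GPAT9 overlap. QQS had no close listed neighbour on 1 side, where the nearest listed gene lay 180865 bp away, and its neighbour 7346 bp away on the other side was at 0 in 5 of 6 libraries. Over the 241 non-members within 5 listed genes of a member, limma tested 171 and called 0. Of the 171, 8 were lower and 2 higher at an unadjusted p under 0.05. Of all 16870 genes tested, 575 were lower and 341 higher at that level.

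**Figure D5:**
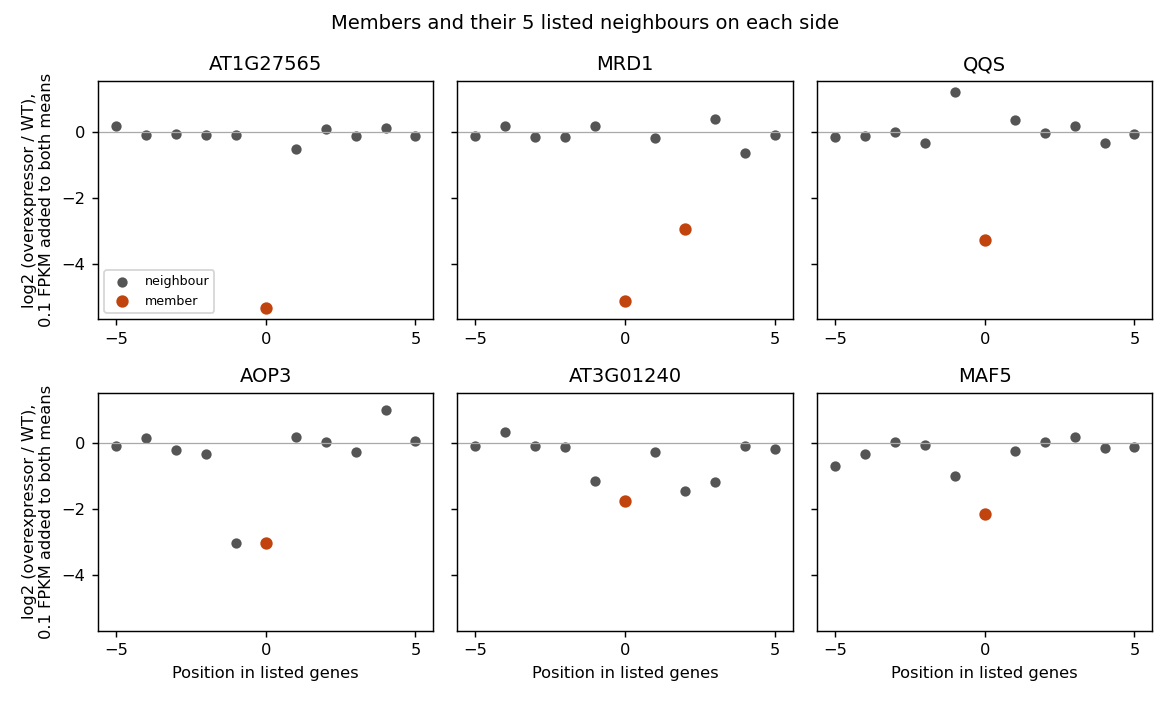
Log2 of the overexpressor over the WT mean, with 0.1 FPKM added to both, for 6 members (orange, position 0) and the 5 listed genes on each side, by position in the order of listed genes. AT1G27565, MRD1 and QQS lie far below their neighbours except for HEI10, itself a member, near MRD1, while AT4G03040 beside AOP3 lies as low as AOP3, at a value that depends on the 0.1 added.

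A set of 21 genes with values was chosen after values were seen. It held closest matches and family relatives of members, and also NF-YC4, MUM4 and AT1G07887, which are neither. Not every closest match was in it, AT3G01230 being left out. Of the 21, 12 were tested by limma and 0 were called, with a median log2 fold change of -0.15. At an unadjusted p under 0.05, 3 were lower and 0 higher. Over all 16870 genes tested, 575 were lower and 341 higher at that level. Groups did not overlap in 7 of 21 (33.3%), all lower, beside 8.63% lower and 4.67% higher of all 24434 genes. These were SWEET12, SWEET13, MAF4, FLC, AT2G47880, AT3G56360 and AT1G11770, of which SWEET13, MAF4, FLC and AT1G11770 had means too low for the test. The highest overexpressor and lowest WT values were 0.0557 and 0.0567 FPKM in FLC, and 0.104 and 0.105 FPKM in AT1G11770. Margins this small match the difference in depth between the libraries, so these 2 genes are not separated in reads. AOP2 was not used here.

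Promoter windows of the members had a median GC content of 31.3%, against 32% in the other genes. The evening element AAAATATCT, a site bound by clock proteins, was found on either strand in the windows of MAF5 and AT3G09775, 2 of 25 (8%), against 3.13% of 15769 other windows. The G-box core CACGTG was found in 8% of member windows and 8.94% of others, the W-box core TTGACC in 8% and 14.2%, and TATAAA in 56% and 50.7%. TTCCCGCC, an E2F-like site, was found in 0 member windows and 0.564% of others. A match is a description of these letters in these windows. The sum over 10 clock genes was highest in WT replicate 1, which does not show that each gene was. It was 300 to 436 FPKM in overexpressor stems and 826, 205 and 197 FPKM in WT replicates 1, 2 and 3.

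Pathways near the members' roles were read from lists, none of whose genes was a member. No gene of any list was called by limma. Of 17 DNA methylation and silencing genes, 15 were tested, 7 were negative, and the median log2 fold change was 0.01; VIM1, a methylation cofactor, had the smallest p (log2 fold change 0.61, adjusted p = 0.805). Of 10 salicylic acid and defence genes, 7 were tested with a median of -0.03, and PR2, a glucanase, came first at -0.19. Of 5 heat response genes, 3 were tested with a median of -0.35, and HSP90.1, a chaperone, came first at -0.60, or -0.08 without WT replicate 1. The 9 clock genes tested had a median of 0.37, with LUX, of the evening complex, first at 0.37. Without WT replicate 1, LUX was at 0.75 (limma adjusted p = 0.0899).

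The nutrient lists had medians below that of all genes tested, which was -0.04. All 3 tested iron deficiency genes of 11 were negative, with a median of -0.24. FRO3, a ferric reductase, stood at 8.52, 10.4 and 8.75 FPKM in overexpressor stems and 14.0, 12.9 and 11.8 FPKM in WT stems, without overlap (log2 fold change -0.44, unadjusted p = 0.00763, limma adjusted p = 0.805). Of 9 phosphate starvation genes, 7 were tested, 6 were negative and the median was -0.35. PHO1, which exports phosphate into the xylem, stood at 15.4, 16.5 and 12.6 FPKM in overexpressor stems and 19.8, 19.5 and 21.7 FPKM in WT stems (log2 fold change -0.43, limma adjusted p = 0.805). Of 7 sulfur deficiency genes, 4 were tested with a median of -0.10, and LSU2 came first at -0.70, or -0.42 without WT replicate 1.

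Among tissue markers, the tested genes of smallest p were XCP1 of xylem (log2 fold change 0.98, or 0.25 without WT replicate 1), PP2-A1 of phloem (-0.34), LTP1 of epidermis (1.40), CAB1 of green tissue (0.81), WOX4 of cambium (0.24) and AP1 of flower (0.07). None was called by limma, and the adjusted p was 0.805 for each but AP1, where it was 0.947. Without WT replicate 1, PP2-A1, LTP1, CAB1, WOX4 and AP1 had log2 fold changes of -0.31, 1.02, 1.12, 0.23 and -0.05. The smallest limma adjusted p among these markers was then 0.0523, for CAB1. The medians of the xylem, phloem, epidermis, green tissue and cambium lists were 0.88, -0.14, 0.24, 0.25 and 0.24. No seed or root marker reached the mean of 1 FPKM.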

How the data were processed

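RNA sequencing was done on stems of 3 overexpressor and 3 WT plants, from total RNA, per the labels' protocols. The authors deposited FPKM values for 24434 genes, and HISAT2 was among the tools, per the submitters' processing notes. The sources used here do not give the genome build, annotation, counting program or use of strand. FPKM times the exonic length in RefSeq TAIR10.1 gave whole reads for 100% of values within 0.1 reads, so reads, depths and coordinates are those of TAIR10.1. Columns were matched to samples by name, and 0 were left over.

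Members were taken by the rule on the lowest WT and highest overexpressor FPKM. The members, gene lists, relatives and rule for naming genes were chosen with earlier results of these data known. All members are named, with the genes next to the limits and the gene of smallest p in each list given; the list of meiotic genes is not reported here. Other genes are mostly genes within 5 listed genes of a member, relatives, copies, genes that overlap a member and NF-YC4, picked after their values were seen.

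Non-members were tested with limma 3.58.1 (R 4.3.3), two-sided, on log2(FPKM + 1) of the 16870 genes whose mean reached 1 FPKM, with a trend and no block; p-values were Benjamini-Hochberg adjusted over all of them, with a threshold of 0.05. Fold changes on this scale understate changes of low genes. Each p-value measures spread between plants and library preparation together. Ratios of members are of FPKM means with no pseudocount. Copies were sought with blastn 2.17.0 at an E-value of 1e-10. Start windows run from 250 bases before to 50 bases after the RefSeq start. The limma step was checked on simulated data. Alternatives covered the gap, the floor, the pseudocount, the filter, scaling between libraries, a replicate block and each library left out. Counting intervals are exact Poisson at 95%. RefSeq protein sequences were not used here. A gene with 1 FPKM and few exonic bases rests on few reads, which limits the precision of low members.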

Additional observations from a re-analysis of the deposited data

How the results depend on the processing

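The number of members followed the limits of the rule: 76 genes where the lowest WT value had to be 125% of the highest overexpressor value, 7 at a gap of 2, 5 at 3, 36 at a floor of 0.5 FPKM and 12 at 5 FPKM, against 25. Rescaling the libraries by median ratio gave 24, all of them members. Leaving out 1 library gave 34 to 134 genes, from 34 without WT replicate 3 to 134 without overexpressor replicate 2, since fewer libraries have to be passed. The log2 ratios of the 25 members under 9 settings gave 225 values, of which 0 changed sign and 13, in 10 members, moved by more than the spread between replicates, all 13 on adding 0.1 or 1 FPKM. AOP3 and AT5G05250 were the members whose ratio moved by over 1.5 times on leaving out WT replicate 1, to log2 ratios of -3.05 and -1.32, and MAF5 on leaving out overexpressor replicate 2, to -2.85. In limma, the 2 lower and 0 higher genes became 3 and 1 with no filter on low values and 1 to 7 lower and 0 to 16 higher on leaving out 1 library. Same-numbered samples of the groups correlated at -0.60, -0.59 and 0.03 in their deviations from the group mean. In groups this small, with WT replicate 1 apart, such correlations cannot show whether samples were handled in pairs. With the replicate number as a block, limma called 0 genes lower and 0 higher (224 and 171 at an unadjusted p under 0.05). Depth limits the low members, of which the lowest value was 5 reads.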
